A study of Rattus norvegicus with 6 samples.

Results

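The genes described here are the negative feedback and immediate transcriptional readout of the extracellular signal-regulated kinase (ERK) pathway: the Sprouty genes Spry1, Spry2 and Spry4, the related Spred1 and Spred2, the dual-specificity phosphatases Dusp4, Dusp5 and Dusp6, and the ETS factors Etv4 and Etv5. The 10 genes were chosen by name, and 9 of them were among the 11426 genes tested. Spred1 was not analysed here.

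Primary nucleus pulposus cells (NPCs), the cells of the gel-like core of the intervertebral disc, were isolated from the tail discs of male wild type Sprague-Dawley rats of 120 to 150 g, whose age the labels do not give. All cultures received tert-butyl hydroperoxide (TBHP), an organic peroxide used to cause oxidative stress and senescence. Poly(A) RNA was sequenced in 3 libraries treated with TBHP (the TBHP group) and 3 given FGF21, as recombinant rat protein, together with TBHP (the TBHP+FGF21 group). No library without TBHP was analysed, and the labels give neither dose nor duration and do not say whether libraries came from separate animals or cultures, so p-values measure only the spread between these libraries, which may be technical.

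The treatment label of TBHP+FGF21 replicate 2 names FGF22 and that of replicate 3 names FGF23, 2 other members of the FGF family, whereas the titles, the treatment protocol and the methods of the study give FGF21 for the whole group. The group was kept as titled, and replicate 2 stood closer to the TBHP libraries than its partners did. For 57.3% of all genes tested it was the TBHP+FGF21 library nearest to the TBHP mean, and its median distance from that mean was 0.083 on the log2 CPM scale, against 0.17 for replicate 1 and 0.20 for replicate 3. Results are given with all 6 libraries first, then without replicate 2, without replicate 3 and, where stated, with replicate 1 alone, the single library whose treatment label names FGF21. Leaving out the treated library that lies nearest to the controls tends by construction to widen the fold changes and to raise the number of calls, so values without replicate 2 are a description of how much rests on it and no independent evidence of an effect. Total counts per library ranged from 18277732 to 22426190, and no 2 libraries agreed within sampling noise. The cells expressed Acan, the aggrecan core protein, at 2506 to 4353 CPM (counts scaled to the same library total) and Pax1, a sclerotome and nucleus pulposus factor, at 211 to 385 CPM, while the notochord genes Tbxt, Noto and Shh had 0 counts in all 6 libraries, which allows up to 0.134 to 0.164 CPM (3 counts; counting error only). The fibrillar collagen gene Col1a1 stood at 27859 to 42448 CPM and Col2a1 of cartilage at 0.41 to 0.78 CPM, so the label of NPCs was met by some of its markers and not by others. Col1a2, the other type I collagen gene listed, had only 7 to 17 counts per library. Low and 0 counts are those of the deposited counts, and whether reads of such genes were lost in counting was not tested.

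Receptor tyrosine kinases such as the FGF receptors signal through adaptors and Ras to a cascade of kinases that ends in MEK and ERK. ERK raises the transcription of genes that restrain it: Sprouty and Spred proteins act upstream, on Ras activation, while DUSP phosphatases remove phosphate from ERK itself, DUSP6 mainly in the cytoplasm and DUSP4 and DUSP5 in the nucleus. ETV4 and ETV5 are ETS transcription factors that FGF signalling induces in many tissues. FGF21 is an endocrine FGF that signals through FGF receptors together with the co-receptor beta-Klotho, encoded by Klb.

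The sequences before the annotated starts of Dusp5, Dusp6 and Spry2 are shown. With all 6 libraries, Dusp5 and Spry2 passed an unadjusted edgeR p under 0.05, and the groups of Dusp5 and Dusp6 did not overlap. None of the 3 genes passed after adjustment in that fit. Capitals mark matches, on either strand, to the CArG box bound by serum response factor, to TGACG, the half-site of the cyclic AMP response element, and to CGGAA, which holds the core of ETS factor sites. A match on the other strand appears in the printed run as the reverse complement. Each runs 5′ to 3′ over the 250 bases before the start in RefSeq's annotation of GRCr8, at chr1:262543524-262543773 on the plus strand for Dusp5, chr7:35979354-35979603 on the plus strand for Dusp6 and chr15:89111927-89112176 on the minus strand for Spry2.
Dusp5: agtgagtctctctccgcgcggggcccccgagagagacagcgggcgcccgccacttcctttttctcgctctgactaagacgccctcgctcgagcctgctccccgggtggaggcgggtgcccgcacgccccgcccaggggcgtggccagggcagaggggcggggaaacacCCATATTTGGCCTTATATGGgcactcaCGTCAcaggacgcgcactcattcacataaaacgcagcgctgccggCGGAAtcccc
Dusp6: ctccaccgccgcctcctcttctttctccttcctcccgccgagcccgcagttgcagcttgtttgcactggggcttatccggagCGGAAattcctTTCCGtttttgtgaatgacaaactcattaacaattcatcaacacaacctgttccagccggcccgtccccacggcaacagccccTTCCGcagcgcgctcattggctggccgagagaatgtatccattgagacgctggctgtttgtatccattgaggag
Spry2: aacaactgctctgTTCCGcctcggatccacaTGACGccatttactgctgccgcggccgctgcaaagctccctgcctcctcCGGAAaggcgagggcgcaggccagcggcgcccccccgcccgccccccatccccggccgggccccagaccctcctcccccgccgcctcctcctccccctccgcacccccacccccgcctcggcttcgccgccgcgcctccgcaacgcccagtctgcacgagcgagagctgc

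Promoter entries were found for 8 of the 10 genes, not for Dusp4 and Etv4, and the motifs were chosen after the sequences were seen. Spry2 also had a second annotated start, with 0 matches to each motif, which was left out of the counts of genes. The percentages of all promoters count every entry, so the 2 kinds of share are not fully alike. A CArG box occurred in 1 of 8, Dusp5, where 2 of them lay side by side, from base -82 to -73 and from base -72 to -63, and 1.5% of all 33469 annotated promoters held at least 1. TGACG occurred in 3 of 8 (Spry2, Spred2 and Dusp5) against 18.2% of all promoters, with the Dusp5 match at base -55 and the Spry2 match at base -219. CGGAA occurred in 6 of 8 against 26.1% of all promoters, and Dusp6 held 3 of these, beginning at bases -168, -157 and -74. None of the 3 motifs overlapped another in these windows. A match describes letters only, and nothing measured here bears on binding.

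**Figure D1:**
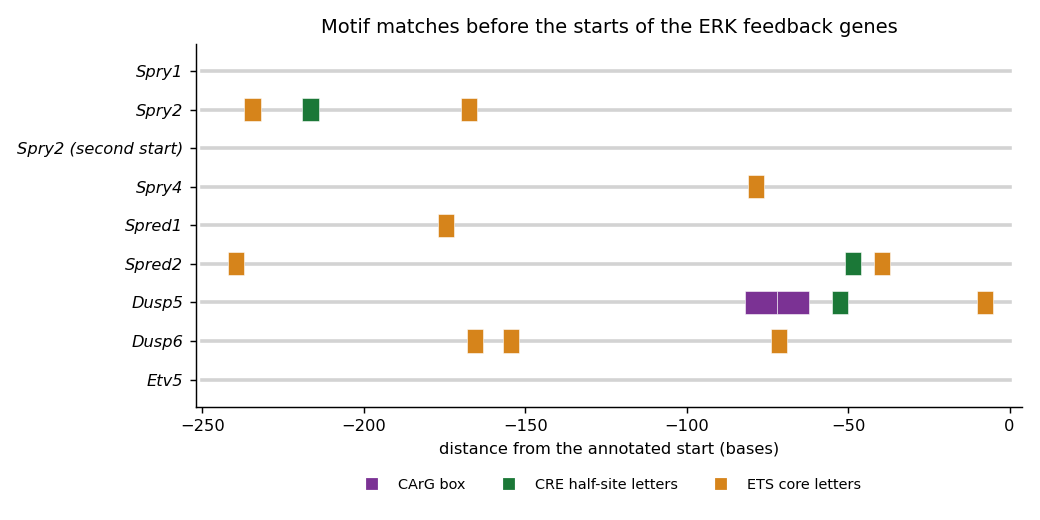
Positions of matches to the 3 motifs in the 250 bases before each annotated start, with distance in bases from the start on the horizontal axis and 1 row per start (Spry2 has 2). Boxes show matches on either strand. The 2 adjoining CArG boxes sit in the Dusp5 row alone. ETS core matches occur in 6 of 8 genes, and the Dusp6 row holds 3.

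The comparison asked whether FGF21 shifted the expression of these genes in cells already under TBHP. None of the 9 genes passed the adjusted threshold of 0.05 in the quasi-likelihood test of edgeR, with p-values adjusted over all genes by Benjamini-Hochberg, at which 0.00875% of all genes were called. That is 1 gene, Sirt1, a deacetylase, named after its values were seen, with an edgeR adjusted p of 0.0200, and the next smallest adjusted p was 0.553. Unlike the counts of the 9 genes, those of Sirt1 could not be linked to a unique Ensembl row of the deposited per-library counts. With the per-library unstranded counts, edgeR called 0 genes after adjustment. At an unadjusted p under 0.05, 2 of 9 were called, Dusp5 and Spry2, both higher with FGF21, where 8.92% of all genes were called, 4.63% higher and 4.29% lower. DESeq2 also called 2 of 9 at an unadjusted p under 0.05, limma-voom called 1, and limma on log2 normalised counts called 0, and none called a member after adjustment. Of the 9 fold changes, 8 were above 0 and 1 below, with a median log2 fold change of 0.17, beside a median of -0.0052 over all genes, of which 5592 were above 0 and 5834 below. The groups did not overlap in 1 member that was higher (Dusp5) and 1 that was lower (Dusp6) with FGF21, against 4.90% and 5.00% of all genes. Levels below are CPM after TMM scaling and are compared within a gene, since transcript lengths were not used.

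**Figure D2:**
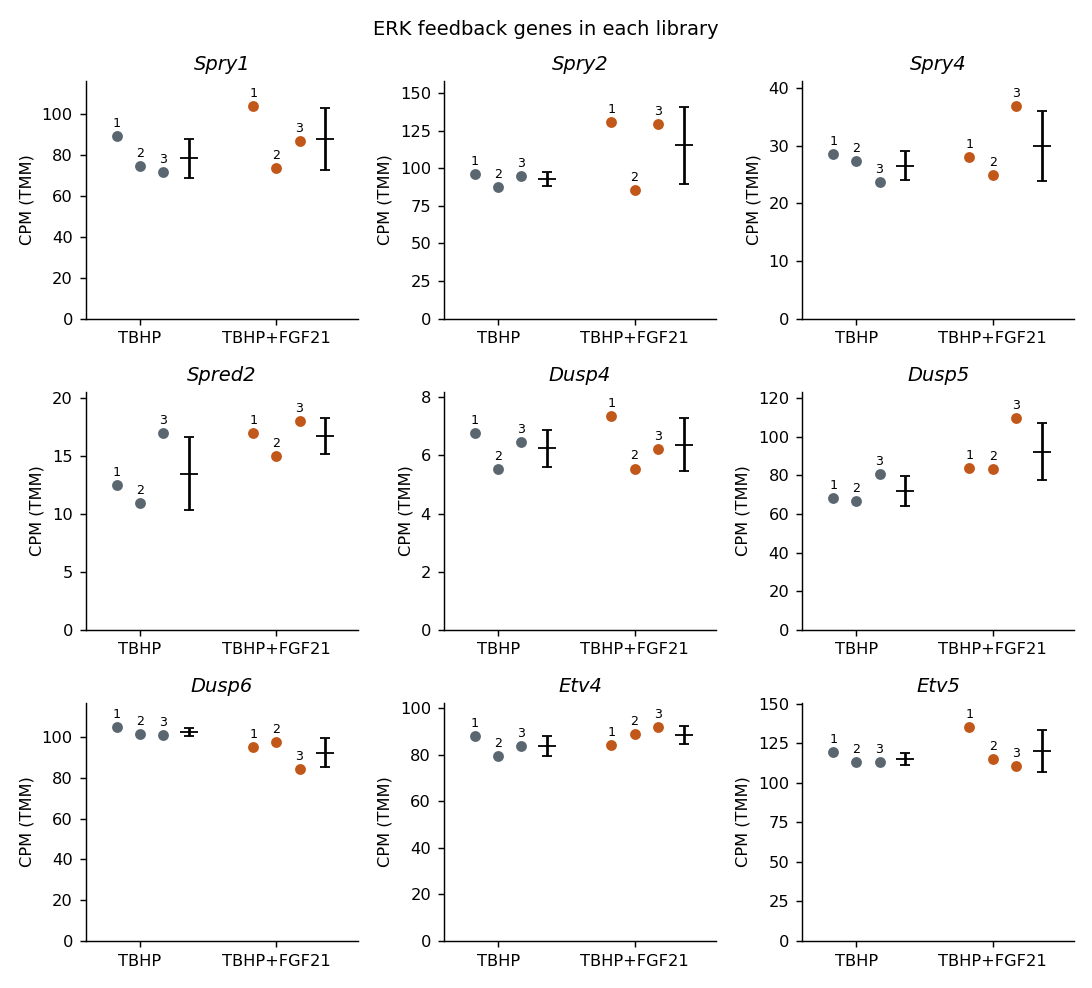
CPM after TMM scaling of each gene in each library, 1 panel per gene, with the replicate number above each point and the mean ± SD (n = 3) beside each group. Dusp5 and Dusp6 are the genes whose groups do not overlap, and Spry2 has TBHP+FGF21 libraries at 130.7, 129.1 and 85.6 CPM.

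Dusp5, an inducible nuclear phosphatase that acts on ERK, had 68.3, 66.9 and 80.9 CPM in the TBHP replicates 1 to 3 and 84.0, 83.5 and 109.7 CPM in the TBHP+FGF21 replicates 1 to 3. Every FGF21 library lay above every TBHP library, although replicates 1 and 2 lay only just above the highest of them. The means were 72.0 ± 7.73 and 92.4 ± 15.0 CPM (SD, n = 3 each), a log2 fold change of 0.36 (SE 0.12, 95% confidence interval 0.09 to 0.63), or 1.28-fold, with an unadjusted edgeR p of 0.0133 and an adjusted p of 0.553. The exact permutation test gave p = 0.1, the smallest that 3 libraries against 3 can reach. Without TBHP+FGF21 replicate 2 the log2 fold change was 0.44 (SE 0.12) with an edgeR adjusted p of 0.0367, and without replicate 3, the highest library, it was 0.22 with an unadjusted edgeR p of 0.0732. Leaving out TBHP replicate 1 or TBHP replicate 2 also took the unadjusted edgeR p past the threshold, to 0.0534 and 0.0585. Replicate 1 alone against the TBHP group gave 0.22 (unadjusted edgeR p 0.133). The span of Dusp5 in GRCr8 overlaps that of a long non-coding RNA gene, LOC134485251. The counts do not separate strands, and whether reads of that gene entered the counts of Dusp5 was not tested.

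Dusp6, the cytoplasmic ERK phosphatase often used as a readout of FGF signalling, went the other way in level. It had 105, 102 and 101 CPM in the TBHP libraries and 95.1, 97.6 and 84.2 CPM in the TBHP+FGF21 libraries. The TBHP values lay close together and above all FGF21 values. Means were 103 ± 2.12 and 92.3 ± 7.16 CPM (SD, n = 3 each), a log2 fold change of -0.15 (SE 0.09, 95% confidence interval -0.35 to 0.05), which passed neither threshold (unadjusted edgeR p 0.121, adjusted p 0.584, exact permutation p = 0.1). It stayed below 0 in each of the 16 alternative settings, from -0.19 to -0.08. The interval holds 0 and excludes an increase of more than 0.05 on the log2 scale.

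Dusp4, the other nuclear phosphatase, was the lowest in counts, with 116 to 155 per library. Its levels were 6.76, 5.53 and 6.47 CPM under TBHP and 7.34, 5.55 and 6.23 CPM with FGF21, and the groups overlapped throughout. The log2 fold change was 0.03 (SE 0.17, 95% confidence interval -0.33 to 0.39, edgeR adjusted p 0.955). That interval holds decreases as far as -0.33 and increases as far as 0.39.

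The counts of Dusp5 were also set against those of Dusp6 in the same library, a ratio that scaling does not touch and that was chosen after the values were seen. It was 0.651, 0.658 and 0.801 in the TBHP libraries and 0.883, 0.855 and 1.30 in the TBHP+FGF21 libraries. The groups did not overlap, replicate 2 included (means 0.703 ± 0.0851 and 1.01 ± 0.251, SD, n = 3, exact permutation p = 0.1). As the pair was picked for its opposite directions, the ratio adds no evidence of its own.

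Spry2, which restrains receptor tyrosine kinase signalling to Ras, had 96.0, 87.6 and 95.0 CPM under TBHP and 130.7, 85.6 and 129.1 CPM with FGF21. The TBHP+FGF21 replicates 1 and 3 lay well above every TBHP library, and replicate 2 was the lowest of all 6. Means were 92.9 ± 4.57 and 115 ± 25.6 CPM (SD, n = 3 each), and the log2 fold change was 0.31 (SE 0.14, 95% confidence interval 0.0003 to 0.62) with an unadjusted edgeR p of 0.0498, an adjusted p of 0.553 and an exact permutation p of 0.4. That unadjusted call sat at the threshold: leaving out any 1 library other than TBHP+FGF21 replicate 2 took the edgeR p to between 0.0661 and 0.180. Without replicate 2 the log2 fold change was 0.49 (SE 0.10), or 1.41-fold, with an edgeR adjusted p of 0.00532. With replicate 1 alone as the FGF21 library it was 0.50 (edgeR adjusted p 0.0330), where the lone library is assumed to vary like the TBHP group.

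Spry1 and Spry4, its relatives, showed the same rank of replicate 2 as the lowest of its group. Spry1 had 89.5, 74.6 and 71.7 CPM under TBHP and 104, 73.7 and 86.8 CPM with FGF21, with a log2 fold change of 0.17 (SE 0.13, 95% confidence interval -0.12 to 0.45, edgeR adjusted p 0.660). TBHP+FGF21 replicate 1 was the highest for Spry1, and the other two lay within the TBHP range. Spry4 had 28.6, 27.2 and 23.7 CPM under TBHP and 28.1, 24.9 and 36.8 CPM with FGF21, with a log2 fold change of 0.18 (SE 0.14, 95% confidence interval -0.13 to 0.49, edgeR adjusted p 0.671). Most of its size rested on replicate 3, without which the log2 fold change was 0.0088. Leaving out TBHP+FGF21 replicate 1 took Spry1 from 0.17 to 0.04.

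Spred2, a Sprouty-related protein that restrains Ras activation, had 12.5, 10.9 and 17.0 CPM under TBHP and 17.05, 15.0 and 18.1 CPM with FGF21. The groups overlapped through TBHP replicate 3, which lay above TBHP+FGF21 replicate 2. The log2 fold change was 0.31 (SE 0.16, 95% confidence interval -0.04 to 0.66, unadjusted edgeR p 0.0801, adjusted p 0.559). It was 0.52 without TBHP replicate 3 (unadjusted edgeR p 0.00418, adjusted p 0.241) and 0.18 without TBHP replicate 2.

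The ETS factors differed little between the groups. Etv4 had 88.2, 79.4 and 84.0 CPM under TBHP and 84.4, 88.8 and 92.1 CPM with FGF21, and Etv5 had 119, 113 and 113 CPM against 135, 115 and 110 CPM. In both genes the ranges overlapped, and Etv5 was highest in TBHP+FGF21 replicate 1 and lowest in TBHP+FGF21 replicate 3. The log2 fold change was 0.08 for Etv4 (SE 0.09, 95% confidence interval -0.12 to 0.27, edgeR adjusted p 0.762) and 0.06 for Etv5 (SE 0.10, 95% confidence interval -0.15 to 0.28, edgeR adjusted p 0.834). Their intervals exclude increases above 0.27 and 0.28 on the log2 scale. Etv5 turned to -0.02 without TBHP+FGF21 replicate 1.

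**Figure D3:**
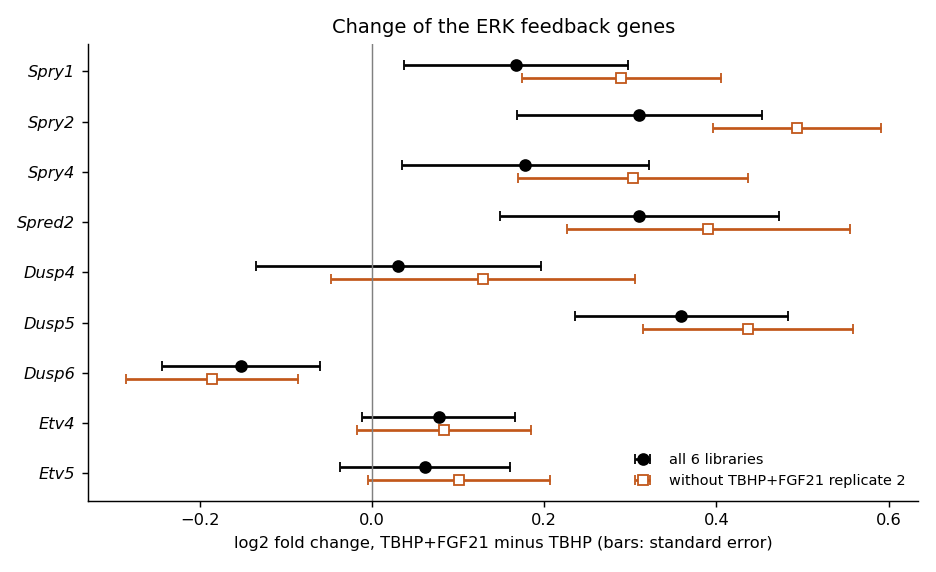
Log2 fold change of each gene, TBHP+FGF21 minus TBHP, from edgeR, with bars of 1 standard error. Filled circles use all 6 libraries and open squares leave out TBHP+FGF21 replicate 2, where Spry2 moves from 0.31 to 0.49 and Dusp6 from -0.15 to -0.19.

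Without TBHP+FGF21 replicate 2, 2 of 9 genes (Spry2 and Dusp5) were called higher after adjustment by edgeR and none lower, where 3.78% of all genes were called higher and 3.72% lower. Spry1, Spry4 and Spred2 then had unadjusted edgeR p values of 0.0219, 0.0361 and 0.0285 with log2 fold changes of 0.29, 0.30 and 0.39, and adjusted p values of 0.135, 0.176 and 0.156. With Spry2 and Dusp5 that made 5 of 9 at an unadjusted p under 0.05, all higher, where 23.6% of all genes passed the same threshold, 11.6% higher. The median over the 9 genes was 0.29. These counts come from the fit that drops the treated library lying nearest to the TBHP mean, and with all 6 libraries the edgeR adjusted p was 0.553 for both Spry2 and Dusp5. Without TBHP+FGF21 replicate 3, whose treatment label also differs, 0 of 9 passed an unadjusted p under 0.05, where 2.96% of all genes did, none passed after adjustment by edgeR, and the median was 0.13.

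The library that was nearest to the TBHP mean was TBHP+FGF21 replicate 2 for 7 of 9 genes, and it was the lowest of its group in 6 of 9. The summed level of the nucleus pulposus and notochord markers was 276, 256 and 270 CPM under TBHP and 402, 268 and 452 CPM with FGF21. It came from 8 of 11 listed symbols with a row, with Tbxt, Noto and Shh at 0. Ca12 had a row under its other symbol, Car12, which was left out of the sum. Most of that sum was Pax1 (log2 fold change 0.54), and the list did not move together: Foxf1 stood at 0.27, while the keratin gene Krt8 stood at -0.43, with every FGF21 library below every TBHP library, and Cd24 at -0.55. Rows were found for 6 of 6 cartilage matrix markers and 8 of 8 fibroblast and annulus fibrosus markers. Summed cartilage matrix markers, led by Acan, ranged from 2611 to 3049 CPM under TBHP and from 2967 to 4463 CPM with FGF21. Fibroblast and annulus fibrosus markers ranged from 42914 to 47378 and from 32543 to 44823 CPM. Most of this second sum was Col1a1 (log2 fold change -0.19, groups overlapping), and the list did not move together. Pdgfra, Lum, Col1a2 and Thy1 stood at 0.39, 0.10, 0.08 and 0.06. Col3a1, Dcn and Postn stood at -0.0008, -0.08 and -0.43. Macrophage markers summed to 32.2 to 37.9 and 26.6 to 32.9 CPM with Ptprc and Adgre1 at 0, endothelial markers to at most 0.526 CPM with Cdh5 and Kdr at 0, and skeletal muscle markers to 1.89 to 4.83 CPM. The part of cell makeup in the differences of the feedback genes was not tested, and in bulk RNA fewer cells of a type and less RNA per cell cannot be told apart.

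**Figure D4:**
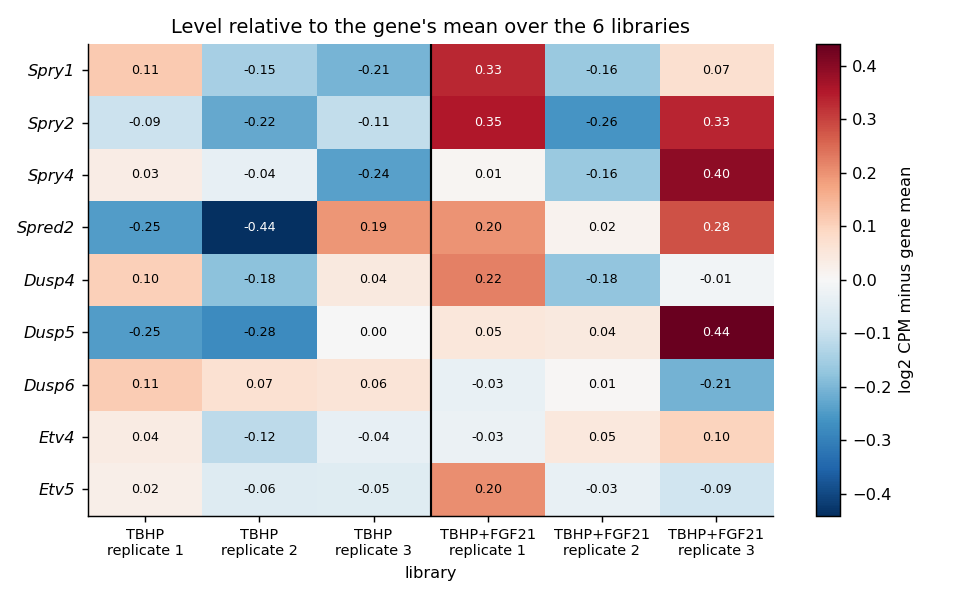
Log2 CPM of each gene (rows) in each library (columns) after subtracting the gene's mean over the 6 libraries, with the colour scale on the right and the group boundary as a line. TBHP+FGF21 replicate 2 is below its partners in Spry1, Spry2 and Spry4, and Dusp5 and Dusp6 have opposite signs in most columns.

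Genes with the nearest pattern were sought for Dusp6 and Spry4 by the mean absolute difference of centred log2 CPM over the 6 libraries, among genes that varied at least as widely. For Dusp6 these were Alg12, Ppat and Gxylt1, at 0.019, 0.022 and 0.024 among 8048 candidates, against its own range of 0.32. For Spry4 these were Dcaf4, Efna1 and Nudt13, at 0.045, 0.058 and 0.068 among 3202 candidates, against a range of 0.63. None of these 6 was another member, and 6 libraries leave many genes with like patterns. The rule on range limited which members could appear. For Spry4 only Spred2 and Dusp5 varied widely enough, and for Dusp6 all members did except Etv4 and Etv5.

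The other genes of the pathway were counted by role. Of 69 listed, 61 were tested, with 38 above 0 and 23 below and a median log2 fold change of 0.04. At an unadjusted p under 0.05 edgeR called 7 of 61 higher and 4 of 61 lower, where 4.63% and 4.29% of all genes were called, and none after adjustment, where DESeq2 called 1, Fos. The groups did not overlap in 7 that were higher and 1 that was lower, against 4.90% and 5.00% of all genes.

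The FGF receptors were present and the co-receptors were not detected. Fgfr1 had 138, 121 and 150 CPM under TBHP and 169, 153 and 193 CPM with FGF21, with every FGF21 library above every TBHP library and a log2 fold change of 0.33 (SE 0.11, unadjusted edgeR p 0.0131, adjusted p 0.553). Fgfr2 and Fgfr3 stood at 0.17 and 0.14, and the decoy receptor Fgfrl1 at 0.006, on the log2 fold change scale. Klb, the beta-Klotho gene, its relative Kl and Fgfr4 had 0 counts in all 6 libraries. Counting error alone allows up to 0.134 to 0.164 CPM per library, and loss of their reads in counting was not tested.

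Between receptor and ERK, none of 10 adaptors and none of 6 Ras genes and regulators passed an unadjusted p under 0.05. In the kinase cascade Map2k1, which encodes MEK1, the kinase that activates ERK, was lower (log2 fold change -0.24) at an unadjusted edgeR p of 0.0281, with no overlap between the groups. Of 7 other feedback inhibitors, Lrig3, a relative of the receptor-restraining LRIG1, stood at 0.32 and Rasa4, which switches Ras off, at -0.47.

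Among the other dual-specificity phosphatases, Dusp7, a close relative of Dusp6, had 55.4, 53.9 and 59.3 CPM under TBHP and 73.2, 51.4 and 92.7 CPM with FGF21. As with Spry2, replicates 1 and 3 lay above the TBHP libraries and replicate 2 below them, with a log2 fold change of 0.37 (SE 0.17, unadjusted edgeR p 0.0477) that became 0.57 without replicate 2 (edgeR adjusted p 0.00535). Without replicate 3 the log2 fold change of Dusp7 was 0.16 (unadjusted edgeR p 0.286). Leaving out any of the remaining libraries took the unadjusted edgeR p to between 0.0528 and 0.119. Dusp2, Dusp3, Dusp8, Dusp10, Dusp14 and Dusp16 lay between -0.20 and 0.24, none at an unadjusted p under 0.05, and Dusp9, with 56 counts in all, was not tested.

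In Fos and Egr1, immediate early genes that encode transcription factors, replicate 2 lay above every TBHP library. Fos had 12.8, 13.1 and 15.3 CPM under TBHP and 25.2, 22.8 and 19.0 CPM with FGF21, with no overlap and a log2 fold change of 0.70 (SE 0.14, unadjusted edgeR p 2.4e-04, adjusted p 0.553, DESeq2 adjusted p 0.0327). Egr1 had 335, 327 and 360 CPM and then 526, 410 and 417 CPM, with a log2 fold change of 0.41 (SE 0.11, unadjusted edgeR p 0.00345). Other ERK targets differed in sign: Epha4 stood at 0.68, Ier3 at -0.46 and Epha2 at -0.27, all with overlapping groups. Without replicate 2, edgeR called 6 of the list higher after adjustment (Fgfr1, Lrig1, Dusp7, Egr1, Fos and Epha4) and 3 lower (Ier3, Epha2 and Plaur), where 3.78% and 3.72% of all genes were called.

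**Figure D5:**
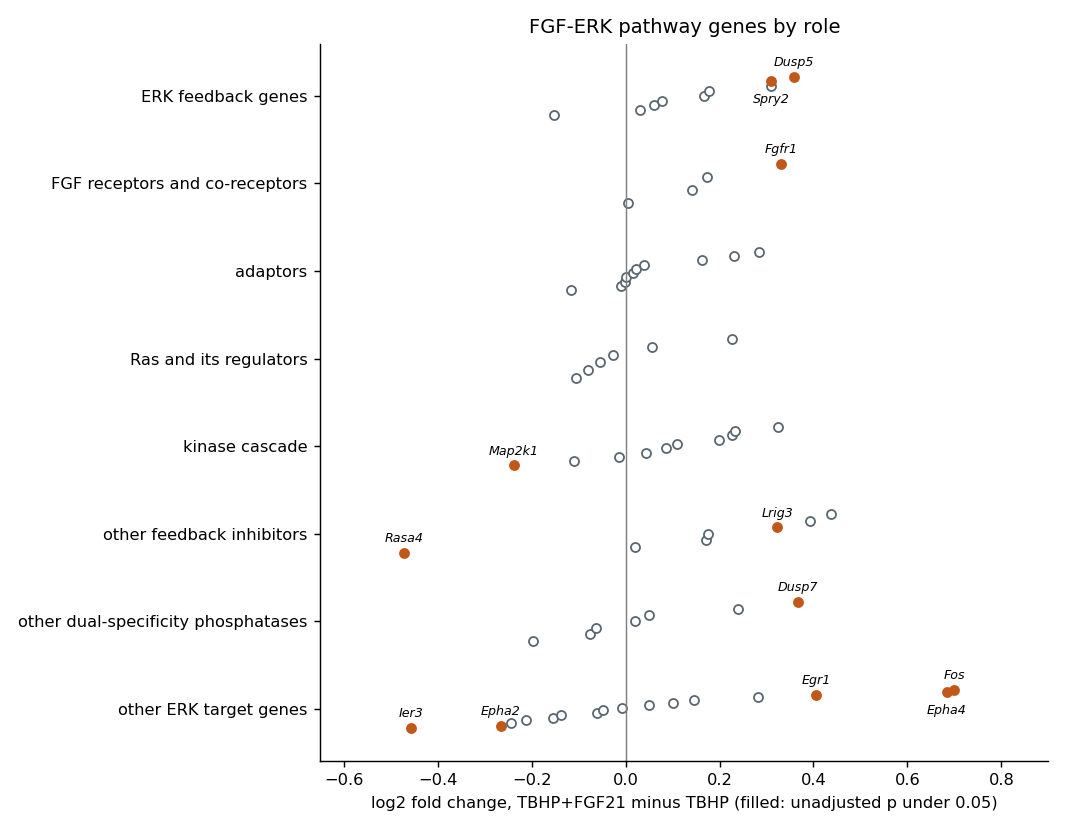
Log2 fold change, TBHP+FGF21 minus TBHP, of the genes reported, by role, with 1 point per gene and filled points at an unadjusted edgeR p under 0.05. Of the 9 feedback genes in the top row, Dusp5 and Spry2 are filled, and Fos and Epha4 stand furthest to the right at 0.70 and 0.68.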

How the data were processed

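RNA-seq libraries of rat NPCs (3 TBHP, 3 TBHP+FGF21) were grouped by title. Deposited by the authors were raw counts per library under Ensembl identifiers (unstranded, and by strand) and a combined table under symbols. STAR and featureCounts are named in the submitters' processing notes, with no version, and the genome build and annotation are not given in the sources used here. The deposited combined table was handled as estimated counts because 22 rows hold values that are not whole, which were rounded up. Counts of all 9 members equal those of 1 Ensembl row each. The library kit is directional, but 46.7% to 51.6% of the members' reads fell on 1 strand, so strand does not separate overlapping genes. Library sizes left out the reads not mapped (1.24% to 1.40%), mapped more than once (6.27% to 7.02%), without a feature (9.13% to 10.4%) and with an ambiguous feature (1.72% to 2.09%).

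edgeR 4.0.16 in R 4.3.3 (TMM, filterByExpr with a minimum count of 10 and total of 15, quasi-likelihood test, condition only) was fitted to all genes and p-values were adjusted by Benjamini-Hochberg over the 11426 tested. SE was obtained by dividing each log2 fold change by the root of its F. Permutation tests were exact and two-sided. Alternatives used per-sample unstranded or strand column 4 counts, DESeq2 1.42.0 (its size factors, its Wald test), limma 3.58.1 (voom, or log2 of normalised count plus 1), other filters, a replicate block, each library left out and replicate 1 alone. On simulated counts for this design, 57 of 200 genes changed by 0.5 (log2) and 172 of 200 changed by 1 were recovered by edgeR among 11426. The named genes were the members, the pathway genes at an unadjusted p under 0.05, the FGF receptors, co-receptors and dual-specificity phosphatases, and the 3 genes nearest in pattern to Dusp6 and Spry4. Members and lists were chosen with earlier results of these data known. Dusp1, Ier2 and Mcl1 of the pathway list were not analysed here, and 1 gene that the counts of the list include is not reported here. Promoters searched for motifs on both strands came from RefSeq (GRCr8).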

Additional observations from a re-analysis of the deposited data

How the results depend on the processing

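Counting noise was small beside the spread between libraries for most members (2.01% to 8.69% of the level, against within-group variation of 2.07% to 23.4%), and 3 libraries a group limit what can be called. All 11426 genes had 1019 at an unadjusted edgeR p under 0.05, which became 669 by limma on log2 normalised counts, 1599 with the replicate block, 1669 with replicate 1 alone and 337 to 2732 with 1 library left out. The genes called after adjustment, 1 by edgeR, were 0 with per-sample unstranded counts, strand column 4, limma-voom and limma on log2 normalised counts, 4 by DESeq2, 5 with no filter, 2 with the replicate block, 325 with replicate 1 alone and 0 to 867 with 1 library left out (867 without TBHP+FGF21 replicate 2). Members at an unadjusted p under 0.05, 2 in all, were 1 with per-sample unstranded counts and with limma-voom, 0 with limma on log2 normalised counts and 3 with the replicate block. They ranged from 0 to 5 with 1 library left out: 0 without TBHP replicate 1, TBHP replicate 2 or TBHP+FGF21 replicate 3, 1 without TBHP+FGF21 replicate 1, 2 without TBHP replicate 3 and 5 without TBHP+FGF21 replicate 2. Members called after adjustment were 1 with replicate 1 alone and 0 to 2 with 1 library left out, the 2 being without TBHP+FGF21 replicate 2. For the pathway list the unadjusted count of 11 became 5 by limma on log2 normalised counts and 3 to 25 with 1 library left out (25 without TBHP+FGF21 replicate 2, 12 without TBHP replicate 3, and 3 to 5 without any other). Its adjusted count of 0 became 1 by DESeq2, 5 with replicate 1 alone and 0 to 9 with 1 library left out. The members' median log2 fold change was 0.11 to 0.29 with 1 library left out.

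Signs turned for genes near 0. Dusp2 was -0.036 with strand column 4, -0.029 by limma on log2 normalised counts, -0.52 with replicate 1 alone and -0.45 to 0.35 with 1 library left out. Dusp8 was 0.20 with replicate 1 alone and -0.22 to 0.10 with 1 library left out, and Dusp10 was 0.19 with strand column 4, 0.020 with replicate 1 alone and -0.17 to 0.070. With 1 library left out, Dusp4 ranged from -0.070 to 0.13, Etv5 from -0.020 to 0.13, Fgfrl1 from -0.051 to 0.064 and Dusp3 from -0.028 to 0.090. Correlations were -0.12, 0.21 and 0.15 between same-numbered libraries and -0.26 to 0.18 between differently numbered ones. So few values cannot decide whether the replicate numbers pair the libraries. The block gave a members' median of 0.16 and 15 pathway genes at an unadjusted edgeR p under 0.05.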
